A study of Solanum chacoense with 24 samples.

Results

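The genotype difference described here is that between leaves of USDA8380-1 and leaves of EE501F2_093 kept in cages without beetles and harvested at the 24 and 48 h time points. The libraries were chosen by their labels alone, as all control libraries of those harvests, and make up 8 of the 24 libraries of the series, 4 of each genotype. The study profiled leaf RNA of Solanum chacoense to examine how gene expression responds to feeding by the Colorado potato beetle, with 12 groups of 2 libraries formed by genotype, arm and harvest. For each genotype 6 plants stood 2 to a cage, and 1 cage was the control while the others received beetles when the plants were 15 weeks old. Hours count from that placement, and the 0 h harvest preceded it. The USDA8380-1 libraries are replicates 1 and 2 at 24 h and replicates 1 and 3 at 48 h, and the EE501F2_093 libraries are replicates 1 and 2 at both hours. Each library is a pool of leaf tissue, and neither genotype had beetles in these 8 libraries. Since a genotype had 1 control cage of 2 plants, genotype and cage cannot be told apart here. The p-values measure the spread between pools from that cage, which may share plants.

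Solanum chacoense is a tuber-bearing wild relative of the cultivated potato. Its leaves hold steroidal glycoalkaloids, and certain accessions also make leptines, acetylated glycoalkaloids known for deterring the Colorado potato beetle. USDA8380-1 is known as a clone rich in leptines. Lines of this outcrossing species can differ in which genes they carry, in how strongly they express a shared gene, and in how well their reads match a reference made from another plant. A difference in read counts can come from any of these, and which of them applied to a gene was not tested.

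The deposited files do not pair the gene identifiers with names, so nothing is said of what single genes do, no pathway could be counted and leaf markers could not be checked. The identifiers follow the naming of the DM potato reference, and the chromosomes given here are read from their digits. Counts on genes ran from 26527243 to 51999317 per library, over 32917 identifiers. Between 24799 and 26629 genes had a count in a library, and 9.65 to 11.7% of reads lay outside genes. As a check of the labels, genes read in a single genotype were picked in 15 of the other libraries, 7 of USDA8380-1 and 8 of EE501F2_093. USDA8380-1 beetle 0 h replicate 3, a shallow library, was left out of that choice. The 4 such genes of USDA8380-1 summed to 10.6 to 19.3 CPM (read counts scaled to a common library size) in its 4 libraries and to at most 0.0368 CPM in those of EE501F2_093. The 25 such genes of EE501F2_093 summed to 242 to 283 CPM in its libraries and to at most 0.709 CPM in those of USDA8380-1. All 8 libraries followed their labels.

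The genotype was the leading axis of the 8 libraries. On the leading principal component of log2 CPM, which held 45.8% of the variance, the USDA8380-1 libraries lay between -107 and -60.7 and the EE501F2_093 libraries between 73.5 and 98.1. One library stood apart within its genotype. USDA8380-1 24 h replicate 2 lay at -147 on the second component (21.9% of the variance), where the other 3 libraries of USDA8380-1 lay at 31.5 to 49.2. Across genes its log2 CPM correlated at 0.868 to 0.880 with its own genotype, against 0.920 to 0.944 among the other 3 and 0.928 to 0.964 among the libraries of EE501F2_093. Pairs of different genotypes correlated at 0.812 to 0.894. The biological coefficient of variation, the spread between libraries beyond counting noise, was 0.516 in USDA8380-1, 0.410 there without that library and 0.388 in EE501F2_093. These values were fitted within hours, so 0.410 rests on the 48 h pair alone, with a single library left at 24 h. The number of calls, the shares by level and the calls shared with other libraries are also given without USDA8380-1 24 h replicate 2. Unless stated, the other counts below use all 8 libraries.

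**Figure D1:**
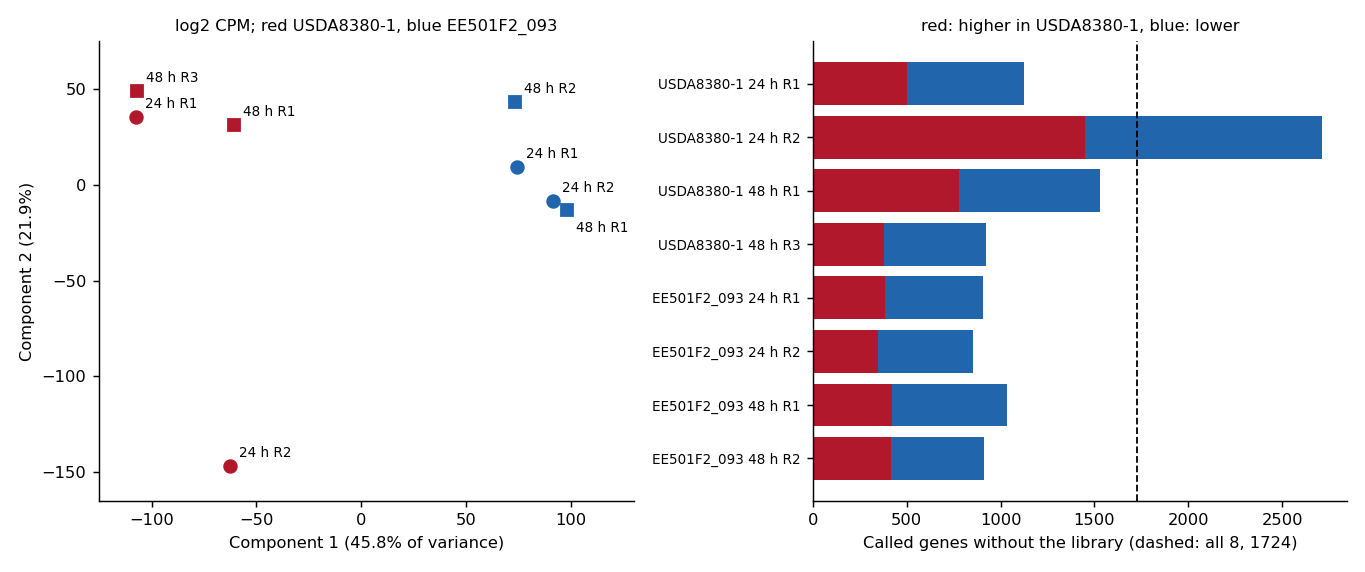
Left, the 8 libraries on the first and second principal components of log2 CPM (no unit), red for USDA8380-1 and blue for EE501F2_093, circles for 24 h and squares for 48 h. The genotypes separate on the first component, and USDA8380-1 24 h replicate 2 lies alone at -147 on the second. Right, the number of genes called when each library is left out, split by direction, with the count of all 8 libraries (1724) dashed; it ranges from 852 to 2712.

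The comparison asked which genes differ between the genotypes when no beetle is present, after the 0 h harvest. Leaves differed at 1724 of the 22039 genes tested (7.82%), at an adjusted p under 0.05 in edgeR's quasi-likelihood test with hour as a covariate. Of these, 835 genes (3.79%) were higher in USDA8380-1 and 889 (4.03%) were lower. The calls were mostly large: their median absolute log2 fold change was 2.36, against 0.40 over all genes tested. Of the calls, 111 were under 1 on the log2 scale, 583 lay from 1 to 2, 392 from 2 to 3 and 327 from 3 to 5. The remaining 311 reached 5 or more, 129 of them higher and 182 lower in USDA8380-1. A further measure without a model is whether the 4 libraries of a genotype lie clear of the 4 others in CPM, which was so for 3691 genes (16.7%), 1759 with USDA8380-1 above (7.98%) and 1932 with it below (8.77%).

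**Figure D2:**
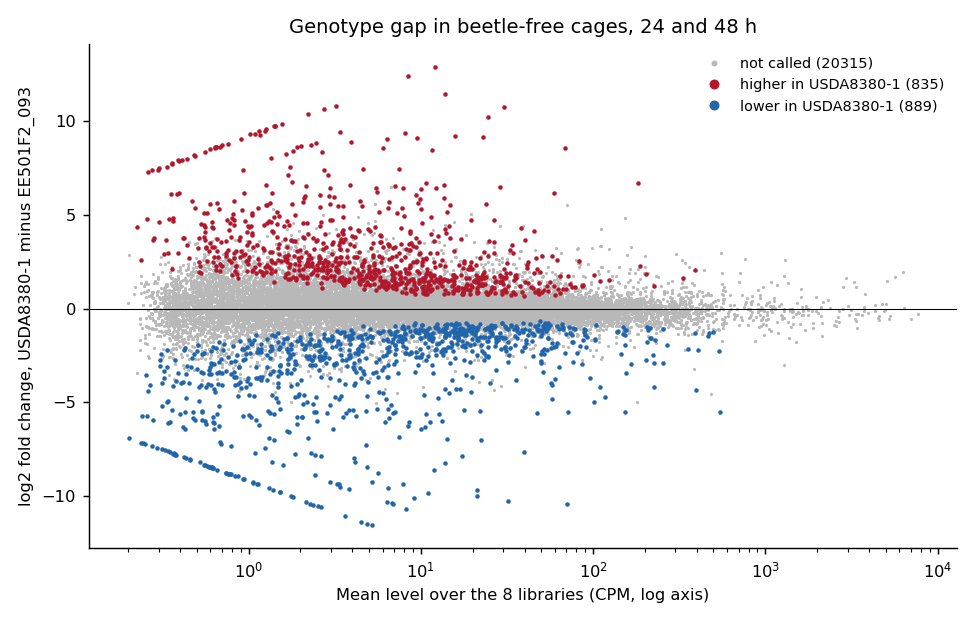
Each point is 1 of the 22039 genes tested. The x axis is its mean level over the 8 libraries in CPM on a log axis, and the y axis its fitted log2 fold change, USDA8380-1 minus EE501F2_093. Red points (835) were called higher in USDA8380-1, blue points (889) lower, grey points were not called. The straight slanted rows of points at the upper and lower left are genes with no or almost no count in a genotype, whose fitted values depend on a prior count. Calls thin out to the right.

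The number of calls rested on single libraries. Without USDA8380-1 24 h replicate 2 it was 2712 (1451 higher, 1261 lower), so the balance of directions turned. Of the 1724 genes, 1583 (91.8%) were among these 2712 and kept their direction, and they made up 58.4% of them. Over the 2712 genes, called without its help, the library left out lay nearer to USDA8380-1 than to EE501F2_093 for 1649 (60.8%). The count fell to 1124 without USDA8380-1 24 h replicate 1, to 920 without USDA8380-1 48 h replicate 3, and to 905, 852, 1035 and 911 without the EE501F2_093 libraries in order of hour and replicate. Without USDA8380-1 48 h replicate 1 it was 1531. A gene that was not called was not thereby shown to be equal. For 8193 genes (37.2%) the 95% interval of the log2 fold change lay within 1 on either side of 0, and for 12122 (55.0%) it was wider. For 1094 called genes the whole interval lay beyond 1.

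Among calls with a mean of at least 5 CPM and genotypes that did not overlap, the largest excess of USDA8380-1 in mean CPM was that of Soltu.DM.10G018830.1, on chromosome 10. In USDA8380-1 it had 911 and 584 CPM at 24 h and 323 and 716 CPM at 48 h. In EE501F2_093 it had 153 and 147 CPM at 24 h and 150 and 158 CPM at 48 h. Every USDA8380-1 library lay above every EE501F2_093 library, and the level was steady in EE501F2_093 and uneven in USDA8380-1. The means were 633 ± 247 and 152 ± 4.70 CPM (SD, n = 4 each), and the log2 fold change was 2.06, with an SE of 0.34 (edgeR adjusted p = 0.0112). Of the 8 fits that each left out a library, that call ended in 1, without EE501F2_093 24 h replicate 1 (edgeR adjusted p = 0.0514).

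Next by the same rule came Soltu.DM.06G033320.1, on chromosome 6. It had 352 and 27.9 CPM at 24 h and 132 and 941 CPM at 48 h in USDA8380-1, and 3.05, 3.63, 0.462 and 5.48 CPM in EE501F2_093. The groups did not overlap, but the levels within USDA8380-1 spread widely, lowest in the library that stood apart. On the log2 scale the genotypes differed by 6.69, with an SE of 1.26 (edgeR adjusted p = 0.0180). Of the 8 fits that each left out a library, this call ended in 4: without USDA8380-1 24 h replicate 1 (edgeR adjusted p = 0.0700) and without EE501F2_093 24 h replicate 1 (0.0612), 24 h replicate 2 (0.0603) or 48 h replicate 2 (0.0606), while the fold change stayed between 5.71 and 7.22 over 16 alternatives.

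In the other direction the largest deficit of USDA8380-1 was that of Soltu.DM.10G018870.1, also on chromosome 10. It had 4.24 and 52.5 CPM at 24 h and 29.4 and 4.74 CPM at 48 h in USDA8380-1, and 1161 and 1612 CPM at 24 h and 632 and 879 CPM at 48 h in EE501F2_093. The genotypes were far apart and did not overlap, with a log2 fold change of -5.52 and an SE of 0.91 (edgeR adjusted p = 0.0111). Only 3 identifiers lie between this gene and Soltu.DM.10G018830.1, the gene with the largest excess, and the pair pointed in opposite directions. Both tested genes between them, Soltu.DM.10G018840.1 and Soltu.DM.10G018860.1, were not called, with log2 fold changes of 1.45 and 0.77 (edgeR adjusted p = 0.398 and 0.751). Whether near-identical copies in that stretch shared or traded reads between genotypes was not tested.

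Soltu.DM.07G021500.1, on chromosome 7, stood at similar levels in the libraries of each genotype. It had 181 and 131 CPM at 24 h and 229 and 200 CPM at 48 h in USDA8380-1, and 677 and 977 CPM at 24 h and 815 and 1119 CPM at 48 h in EE501F2_093. The lowest EE501F2_093 library stood well above the highest USDA8380-1 library, and the log2 fold change was -2.26, with an SE of 0.28 (edgeR adjusted p = 0.00384). The calls of this gene and of Soltu.DM.10G018870.1 remained in all 16 alternatives tried, with adjusted p-values of at most 0.0443 and 0.0490.

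**Figure D3:**
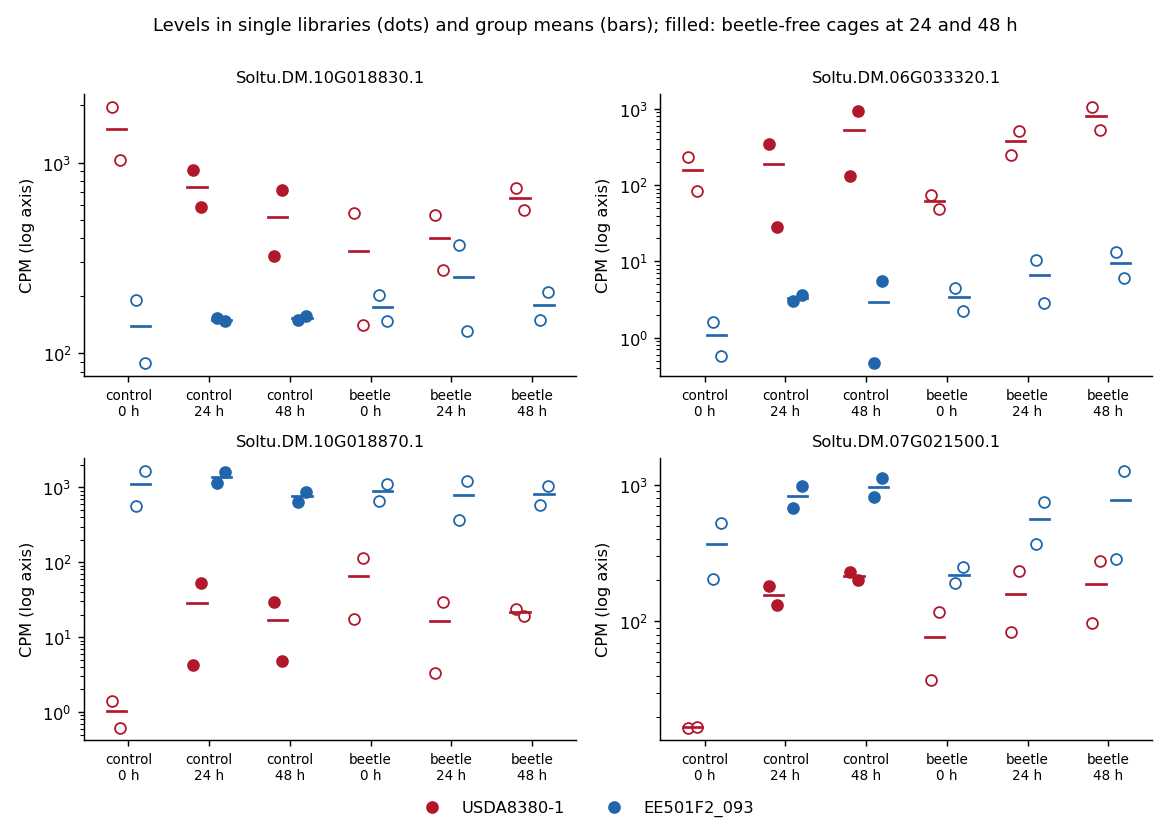
CPM (log axis) of the 4 genes named for the comparison over both hours, in every library by arm and hour, red for USDA8380-1 and blue for EE501F2_093. Dots are libraries and bars group means; filled dots are the 8 beetle-free libraries at 24 and 48 h, open dots the other 16. The filled dots of the genotypes do not overlap in any panel, which the rule that chose the genes required.

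The share of genes called was lowest among strongly expressed genes. Of genes with a mean under 1 CPM 11.6% were called, of those from 1 to 5 CPM 10.9%, from 5 to 20 CPM 8.24%, from 20 to 100 CPM 4.69%, and of those at 100 CPM or more 2.99%. In that last class 9 genes were higher and 41 lower in USDA8380-1. Without USDA8380-1 24 h replicate 2 the share was 12.9% under 1 CPM, and it ran from 15.2% at 1 to 5 CPM down to 5.92% at 100 CPM or more. In the last class 38 were then higher and 61 lower. Of the 100 most abundant genes 0 were called by edgeR and 4 had an unadjusted p under 0.05. By DESeq2 5 of them were called, and by edgeR 1 without USDA8380-1 24 h replicate 2. Their median absolute log2 fold change was 0.35, and the largest was 2.99. For only 15% of these 100 did the 95% interval lie within 1 on either side of 0. In terms of reads, the genes called higher took 1.35 to 1.99% of counts in USDA8380-1 libraries and 0.385 to 0.498% in EE501F2_093 libraries. The genes called lower took 0.842 to 1.06% in USDA8380-1 and 3.12 to 3.33% in EE501F2_093. These genes were chosen for that difference, so the shares describe its size.

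Some genes were read in a single genotype. Of all 32917 identifiers, 142 had a count in every USDA8380-1 library and none in the 4 EE501F2_093 libraries, and for 196 the reverse held. Most were too weak for the test: 38 and 60 were tested and all of these were called, as their choice required. At 1 CPM or more there were 31 genes of USDA8380-1 and 46 of EE501F2_093, and at 5 CPM or more 4 and 6. The libraries not used to choose them were the 8 others of each genotype. There, 29 of the 31 genes averaged at most 0.1 CPM in EE501F2_093, 8 of them with no count at all, and 25 were read in every other USDA8380-1 library. Those USDA8380-1 libraries include the shallow beetle 0 h replicate 3, where a weak gene can go without a count. Of the 46 genes, 41 averaged at most 0.1 CPM in the other USDA8380-1 libraries, 20 of them with no count, and all 46 were read in every other EE501F2_093 library. The absence of counts does not tell a missing gene from a silent one or from reads that did not match.

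The genotypes were also compared at each hour, 2 libraries against 2, in 1 fit of the 8 libraries that share an estimate of the spread. At 24 h 207 of 23588 genes were called (0.878%), 78 higher (0.331%) and 129 lower (0.547%) in USDA8380-1. At 48 h 160 were called (0.678%), 58 higher (0.246%) and 102 lower (0.432%). At an unadjusted p under 0.05 edgeR had 3787 and 3034 genes. Of the 207 genes, 206 had the same direction at 48 h (99.5%, against 69.5% of genes not called at 24 h) and 130 were also called there. Their median log2 fold change in the called direction was 5.23 at 24 h and 4.78 at 48 h. All 160 genes called at 48 h had the same direction at 24 h, with medians of 5.53 and 5.26. The calls at one hour rest on few libraries: without either EE501F2_093 library of 24 h the count at 24 h was 0 (2912 and 2087 genes at an unadjusted p under 0.05), and without either EE501F2_093 library of 48 h it was 1. At 48 h it was 1 without any EE501F2_093 library and 4 or 2 without USDA8380-1 48 h replicate 1 or 3, but 413 and 350 without USDA8380-1 24 h replicates 1 and 2.

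The genes named for 24 h were read in almost 1 genotype only. Soltu.DM.12G000270.1, at the start of chromosome 12 in identifier order, had 13.5 and 14.2 CPM at 24 h and 13.2 and 10.1 CPM at 48 h in USDA8380-1, and 3 counts in all in EE501F2_093, in a single library. The ratio of summed counts over the 8 libraries had an exact 95% Poisson interval of 200 to 2846, which covers counting error only (edgeR adjusted p at 24 h = 0.0206). Soltu.DM.03G031440.1, on chromosome 3, had 25.5, 11.2, 8.59 and 30.8 CPM in USDA8380-1 and 5 counts in all in EE501F2_093, a ratio with an interval of 224 to 1614 (edgeR adjusted p at 24 h = 0.0424). Lower in USDA8380-1 were Soltu.DM.08G006650.1 and Soltu.DM.12G011220.1. The former had 7.17, 12.4, 9.73 and 12.1 CPM in EE501F2_093 and no count in any of the 4 USDA8380-1 libraries, so it was at least 554-fold lower there, taking a floor of 3 counts for the whole group, and at least 450-fold lower by the exact 95% Poisson interval (edgeR adjusted p at 24 h = 0.0206). The latter had 22.4, 18.0, 20.7 and 33.4 CPM in EE501F2_093 and 10 counts in USDA8380-1, none of them at 24 h, a ratio with an interval of 210 to 807 (edgeR adjusted p at 24 h = 0.0206).

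The genes named for 48 h were of the same kind. Soltu.DM.06G003170.1, on chromosome 6, had 19.8, 14.2, 4.56 and 26.2 CPM in USDA8380-1 and 3 counts over EE501F2_093 (edgeR adjusted p at 48 h = 0.0360). Soltu.DM.09G025140.1, on chromosome 9, had 40.3, 19.2, 8.82 and 57.1 CPM and 7 counts (edgeR adjusted p = 0.0432). Both were lowest in USDA8380-1 48 h replicate 1 and highest in 48 h replicate 3. In the other direction, Soltu.DM.02G011440.1 had 19.2, 13.2, 16.0 and 24.7 CPM in EE501F2_093 and 2 counts over USDA8380-1, and Soltu.DM.12G016430.1 had 15.5, 16.0, 17.4 and 16.9 CPM and 1 count (edgeR adjusted p at 48 h = 0.0194 and 0.0205). The last was the most even of these genes. The intervals of the ratios of summed counts were 243 to 3449, 290 to 1490, 409 to 12213 and 462 to 101712 in this order.

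Whether the genotype difference itself changed from 24 to 48 h was tested as an interaction. By edgeR 0 genes were called (0%) and 449 had an unadjusted p under 0.05. DESeq2 called 15 genes. Among the 1724 genes called over both hours, 40 (2.32%) had an unadjusted p under 0.05 for this change, against 1.90% of all genes. The interval of the change was narrower than 1 on either side of 0 for only 23 of them, so most could have changed by more than that unseen. Of genes with at least 5 CPM, the smallest p among falls belonged to Soltu.DM.06G018590.1. It had 34.2 and 44.4 CPM at 24 h and 0.559 and 0.758 CPM at 48 h in USDA8380-1, while EE501F2_093 had 3.49 and 0.940 CPM at 24 h and 1.22 and 0.819 CPM at 48 h. USDA8380-1 was thus above EE501F2_093 at 24 h and slightly below at 48 h, a change of the log2 difference by -4.77 (SE 0.89), which did not pass adjustment in edgeR's test (unadjusted p = 0.000887) but did with DESeq2 (adjusted p = 0.00622). At 0 h the USDA8380-1 control libraries held 68.5 and 1.89 CPM of it, so libraries of 1 harvest were also far apart. Among rises it belonged to Soltu.DM.10G029440.2, at 12.0 and 6.94 CPM at 24 h and 18.3 and 12.7 CPM at 48 h in USDA8380-1 against 0.478 and 0.658, then 0.0990 and 0.151 CPM in EE501F2_093 (change of 2.84, SE 0.68, edgeR unadjusted p = 0.00366).

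The same genotype difference was read in libraries that were not used to call these genes: the 8 libraries of 0 h from both arms, and the 8 libraries of beetle cages at 24 and 48 h. The 0 h set includes the same control cages, and the rest are other cages of the same 2 lines. At 0 h 4066 of 22221 genes were called (18.3%), 2252 higher (10.1%) and 1814 lower (8.16%) in USDA8380-1, and 1278 of the 1724 genes were called there in the same direction. That is 74.1% of the calls of the beetle-free later harvests and 31.4% of the calls at 0 h. With beetles 2236 of 22152 genes were called (10.1%), 1028 higher (4.64%) and 1208 lower (5.45%). Of these, 1105 were shared, 64.1% of the calls of the beetle-free later harvests and 49.4% of those with beetles. No gene was called in opposite directions in either. The direction was the same for 1632 of 1642 genes also tested at 0 h (99.4%, against 75.2% of genes not called) and for 1652 of 1663 tested with beetles (99.3%, against 78.1%). The differences were smaller there: over the genes tested in both, the median in the called direction was 2.28 against 2.04 at 0 h, and 2.28 against 1.77 with beetles. The genes were called on the former value of each pair.

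**Figure D4:**
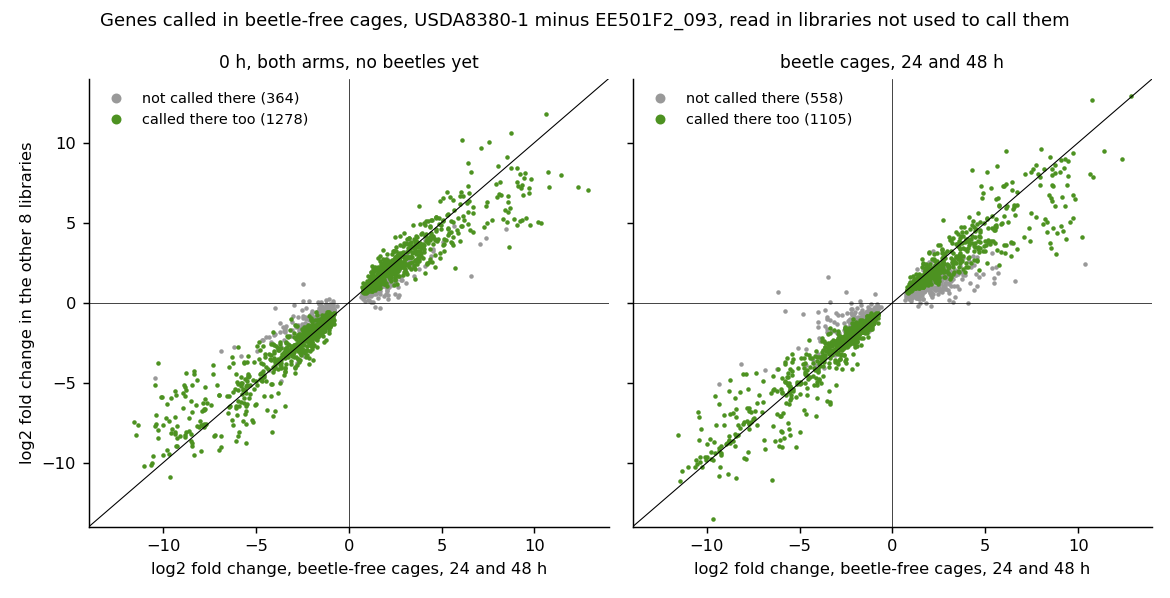
Each point is a gene called in the beetle-free cages at 24 and 48 h. The x axis is its log2 fold change there (USDA8380-1 minus EE501F2_093), the y axis its log2 fold change at 0 h (left, 1642 genes) or in beetle cages (right, 1663 genes); green genes were called there too (1278 and 1105) and grey ones were not. The line marks equal values, and nearly all points lie in the lower left and upper right corners.

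In all 3 sets of libraries 954 genes were called in the same direction, 55.3% of the 1724, of which 435 were higher in USDA8380-1. Their median absolute log2 fold change was 2.76. The genes called in neither other set numbered 295 (17.1%) and were smaller differences, with a median of 1.80. Of 245 of these tested in both other sets, 229 had the same direction in both, with medians of 0.84 at 0 h and 0.82 with beetles. Without USDA8380-1 24 h replicate 2, 1743 of 2712 calls were shared with 0 h and 1325 with the beetle cages. The 0 h set holds a shallow library, USDA8380-1 beetle 0 h replicate 3, and without it 5453 genes were called at 0 h and 1436 of the 1724 were shared. That library also held 113 CPM of Soltu.DM.10G018870.1, where no other USDA8380-1 library passed 52.5 CPM. Soltu.DM.12G000270.1, nearly absent from EE501F2_093, was read in it at 16.4 CPM. The genes named as lower in USDA8380-1 for single hours were Soltu.DM.08G006650.1, Soltu.DM.12G011220.1, Soltu.DM.02G011440.1 and Soltu.DM.12G016430.1. They averaged 0.763, 0.967, 0.586 and 0.191 CPM over the USDA8380-1 beetle-arm libraries of 0 h, on 4, 6, 4 and 1 counts. In USDA8380-1 beetle cages at 24 and 48 h they averaged 0.0199, 0.0318, 0.0135 and 0.00772 CPM. Where these counts came from was not tested.

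Of the 4 genes named over both hours, all kept their direction in both other sets, and 2 were called in both. Soltu.DM.06G033320.1 had log2 fold changes of 5.63 at 0 h and 6.13 with beetles (edgeR adjusted p = 0.00295 and 0.000910), and Soltu.DM.10G018870.1 of -6.77 and -5.41 (edgeR adjusted p = 0.0242 and 0.00380). Soltu.DM.10G018830.1 had 2.21 and 1.27, not called in either (edgeR adjusted p = 0.0515 and 0.112). At 0 h it had 1963 and 1029 CPM in the USDA8380-1 control libraries, above all 8 libraries of the later harvests, but 141 CPM in the shallow library. Soltu.DM.07G021500.1 had -2.97 at 0 h and -1.92 with beetles (edgeR adjusted p = 0.0238 and 0.0814). Its USDA8380-1 control libraries had 16.7 and 16.8 CPM at 0 h, below the 131 to 229 CPM of the later harvests. The EE501F2_093 control libraries were also lower at 0 h, at 204 and 528 CPM against 677 to 1119 CPM later. In the USDA8380-1 beetle arm at 0 h it had 36.9 CPM and, in the shallow library, 117 CPM.

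Whether the difference in the control cages had moved since 0 h was tested on the 12 control libraries. The test called 0 genes (0%) with edgeR, where 820 had an unadjusted p under 0.05, and 1 gene with DESeq2. Among the 1724 genes 146 (8.47%) had an unadjusted p under 0.05, against 3.41% of all genes. The 1724 were chosen on the later gap, a term of this difference, so nothing is read from that share. Soltu.DM.01G040240.1, the gene DESeq2 called, had 1.02 and 0.650 CPM at 0 h in USDA8380-1, 16.0 and 26.1 CPM at 24 h and 103 and 38.1 CPM at 48 h. In EE501F2_093 it had 53.1 and 45.9 CPM at 0 h, 110 and 69.3 CPM at 24 h and 114 and 33.5 CPM at 48 h. In these control cages the genotypes were far apart at 0 h and overlapped at 48 h, a difference of 4.84 (SE 0.84, edgeR adjusted p = 0.968, DESeq2 adjusted p = 7.93e-05). In the beetle arm at 0 h, before beetles, USDA8380-1 had 32.2 CPM and, in the shallow library, 146 CPM. EE501F2_093 had 81.0 and 55.4 CPM there, so the overlap in that arm rests on the shallow library. Over both arms, with that library included, the 0 h gap was not called (edgeR adjusted p = 0.303). In the other direction, Soltu.DM.06G016260.1 had 33.5 and 16.9 CPM at 0 h and 3.77 to 6.37 CPM later in USDA8380-1, and 0.914 to 2.21 CPM in EE501F2_093 over the 3 harvests (difference of -2.74, SE 0.56, edgeR adjusted p = 0.968). The USDA8380-1 libraries of the beetle arm had 4.89 and 3.44 CPM of it at 0 h, so the higher 0 h level was that of the control cage.

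The difference in control cages was also set against that in beetle cages at the same hours, in 16 libraries. Again 0 genes (0%) passed adjustment with edgeR, while 582 had an unadjusted p under 0.05 and 15 passed with DESeq2. Among the 1724 genes 167 (9.69%) had an unadjusted p under 0.05, against 2.38% of all genes, from which nothing is read for the same reason. Soltu.DM.06G027610.1 had 58.8 and 58.2 CPM at 24 h and 12.5 and 66.6 CPM at 48 h in USDA8380-1 control cages, and 5 counts in all over the 4 EE501F2_093 libraries. In beetle cages it had 12.8, 10.6, 20.5 and 33.8 CPM in USDA8380-1 and 0.770, 2.24, 1.10 and 0.254 CPM in EE501F2_093. EE501F2_093 was lower in every control library than in every beetle library, while the USDA8380-1 levels overlapped. The fitted change was 6.09 (SE 0.99, edgeR adjusted p = 0.576), which depends on the few counts in EE501F2_093. At 0 h, before any beetle, the arms already stood apart in the same way, with 99.9 and 211 CPM in USDA8380-1 control libraries against 13.7 and 8.78 CPM in those of the beetle arm. Soltu.DM.06G034550.2 had 12.6, 10.7, 8.70 and 20.5 CPM in USDA8380-1 and 58.4, 96.3, 63.8 and 85.1 CPM in EE501F2_093 in control cages. In beetle cages it had 81.7, 142, 103 and 31.7 CPM against 48.0, 48.4, 58.2 and 70.5 CPM, where the genotypes overlapped (change of -3.17, SE 0.54, edgeR adjusted p = 0.576). DESeq2 called both changes (adjusted p = 2.13e-05 and 7.73e-05). For Soltu.DM.06G034550.2 too the arms differed at 0 h, before any beetle. In the beetle arm the means were then 29.4 ± 7.04 CPM in USDA8380-1 and 44.4 ± 21.0 CPM in EE501F2_093 (SD, n = 2 each). In the control arm they were 15.6 ± 6.65 and 67.8 ± 29.3 CPM. Beetles and cage cannot be told apart in these values.

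By the chromosome read from the identifier, the share of tested genes called ran from 5.34% on chromosome 6 to 10.7% on chromosome 12. Chromosome 10 had 10.3%, chromosome 3 had 9.10%, chromosome 4 had 8.97% and chromosome 11 had 8.78%. Chromosomes 5, 1 and 7 had 6.17, 6.31 and 6.41%, and chromosomes 9, 2 and 8 had 7.49, 7.56 and 7.91%. Chromosome 6 was also lowest at 0 h (14.7%), with beetles (7.45%) and without USDA8380-1 24 h replicate 2 (7.74%). Chromosome 12 had the highest share without that library (15.9%), and chromosome 10 at 0 h (20.8%) and with beetles (12.8%). The balance of directions was 86 higher to 67 lower on chromosome 10 and 76 to 102 on chromosome 1.

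Within chromosomes the calls were uneven. In 434 windows of 50 tested genes in identifier order, a window held a median of 3 calls (quartiles 2 and 5) and from 0 to 14. There were 20 windows without a call, 6 of them on chromosome 1 and 4 on chromosome 6, and 17 windows with 10 or more. The highest value, 14 calls, was reached by 5 windows. The seventh window of chromosome 1 had 13 of its 14 calls lower in USDA8380-1, and the first window of chromosome 12 had 11 of 14 higher and includes Soltu.DM.12G000270.1. Window 22 of chromosome 7, which includes Soltu.DM.07G021500.1, had 11 of 14 lower, window 2 of chromosome 3 had 9 of 14 lower, and window 8 of chromosome 2 had 9 of 14 higher. In the 17 windows with the most calls a median of 31.1% of genes were called at 0 h and 25.5% with beetles, against 12% and 4.04% in the 20 windows without a call.

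**Figure D5:**
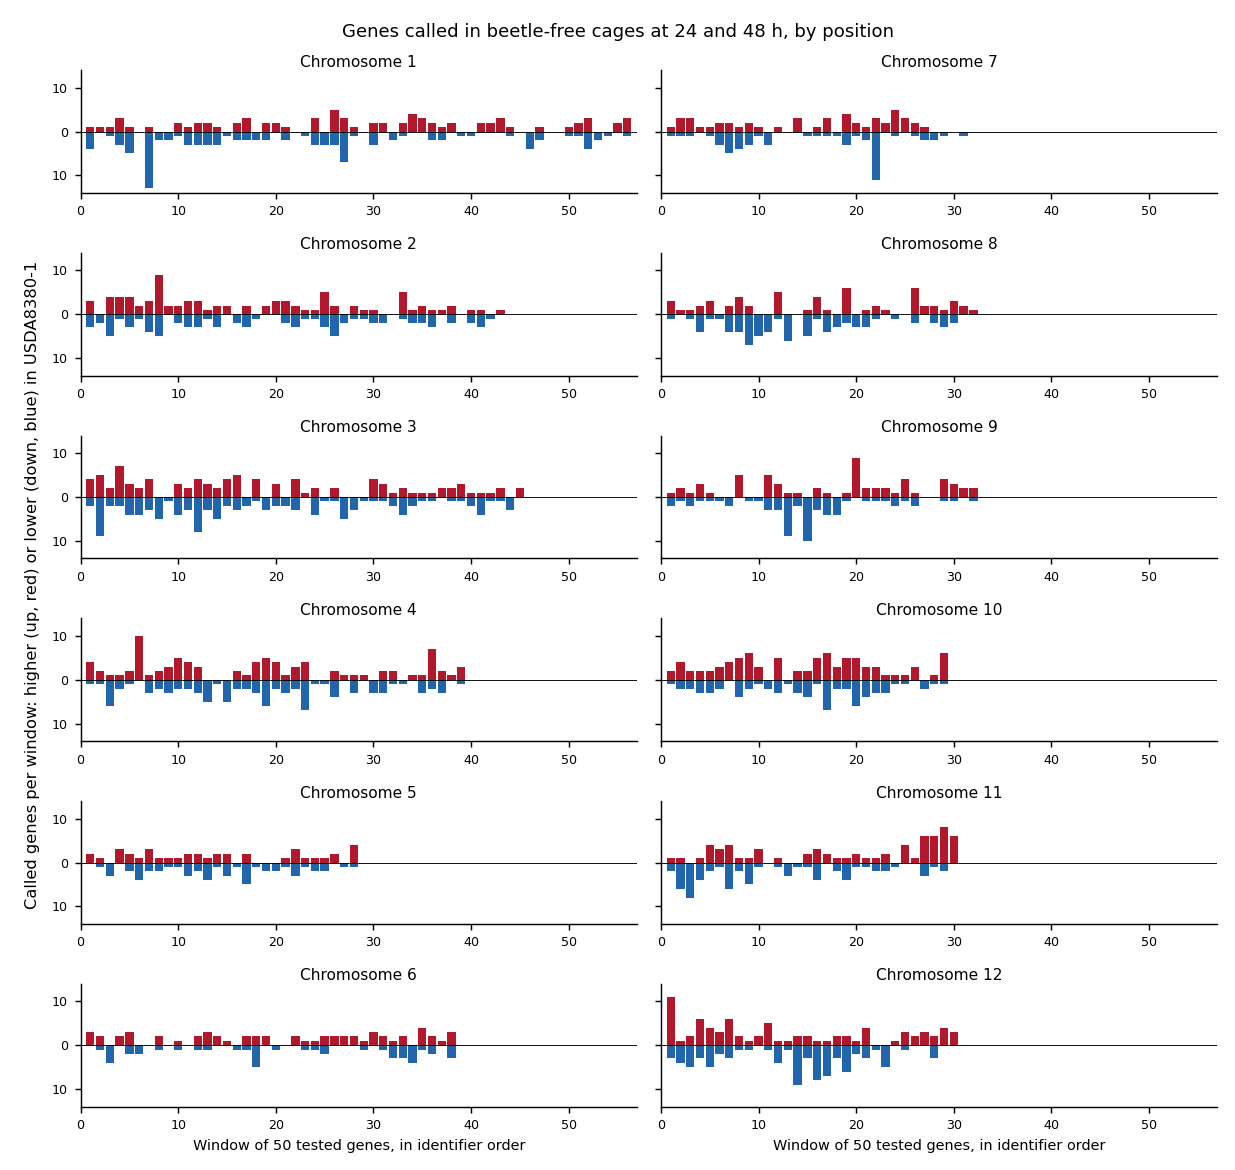
Number of called genes in each window of 50 tested genes, with windows in identifier order along each of the 12 chromosomes. Red bars upward count genes higher in USDA8380-1, blue bars downward genes lower. Tall bars of mostly 1 colour stand at window 7 of chromosome 1 (13 lower) and window 1 of chromosome 12 (11 higher).

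Called genes often stood beside other called genes. After a called gene, the next tested gene was also called in 16.8% of cases, against the 7.82% of all genes, in the same direction for 223 pairs (12.9%) and in opposite directions for 67 (3.89%). Runs of 3 or more called neighbours with the same direction numbered 31 and held 110 genes. The longest had 6 genes, reached 3 times. One of these lies on chromosome 4 and was higher in USDA8380-1 throughout, with mean levels of 2.71 to 56.9 CPM there and 0.291 to 1.73 CPM in EE501F2_093. Its log2 fold changes were 2.34 to 6.47, and in libraries not used to find it 2.08 to 6.84 at 0 h and 1.32 to 5.84 with beetles. Neighbouring genes can be copies of each other that share reads, which these counts cannot tell apart.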

How the data were processed

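Per the labels' protocols, leaf RNA was made into stranded libraries and read singly at 50 nt. Tools listed in the submitters' processing notes are STAR 2.7.3a, Trimmomatic 0.35, HTSeq and Picard. Their settings, the genome build and the annotation were not given in the sources used here. All deposited values are raw counts of reads per gene made by the authors. Library sizes and tests leave out the 5 HTSeq summary lines.

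Counts of the compared libraries were filtered (filterByExpr), scaled (TMM) and tested with edgeR 4.0.16 in R 4.3.3 by the quasi-likelihood F test with Benjamini-Hochberg adjustment over all genes tested. Genotype gaps over both hours had hour as a covariate, gaps at 0 h had arm, and the tests of differences used groups of genotype, arm and hour. SEs are those implied by the F statistic. CPM are on the TMM scale of all 24 libraries. For principal components, log2 CPM had a prior count of 2. DESeq2 1.42.0 and the other alternatives are described in the closing section. The procedure was also run on simulated counts drawn independently for each library, with none standing apart. Those counts do not bear on pools that share a cage or on a library that stands apart.

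Genes were named by size: over both hours the 2 per direction with the largest difference of mean CPM among calls with at least 5 CPM and no overlap of genotypes, in the other comparisons the 2 per direction with the largest fitted change or, with no call, the 1 with the smallest p. The comparison, the libraries and these rules were chosen with earlier results of these data known. Soltu.DM.10G018840.1 and Soltu.DM.10G018860.1, the windows and the runs were chosen after their values were seen. Counting intervals and the floor of 3 counts cover counting error only.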

Additional observations from a re-analysis of the deposited data

Results flagged for a closer look

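In 28 sets of 4 libraries (14 measures in each genotype), 1 set had a library far from the other 3. Chance gives about 1 in 20 for independent values, but these sets are measures of the same 8 libraries. Some are levels of genes chosen for not overlapping between genotypes, or shares of counts on called genes. A principal component is itself built from these libraries. The rate need not hold for such sets, so nothing is read from 1 of 28. The library was USDA8380-1 24 h replicate 2, at -147 on the second principal component of log2 CPM. The other USDA8380-1 libraries lay at 31.5 to 49.2, so that its gap to the nearest made up 0.91 of the whole range. Its 28293997 counts on genes lay within the range of the others, and it had the fewest genes with a count, 24799.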

How the results depend on the processing

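Of the count of 1724 genes over both hours, RLE scaling, no filter on low counts, a stricter filter, robust dispersions, no hour term and a minimum absolute log2 fold change of 1 gave 1361 to 1990. DESeq2 called 3756 and a fit of all 24 libraries 4194. Leaving out 1 library gave 852 to 2712. At 24 h the 207 calls became 379 without a filter, 1978 with DESeq2, 1711 in the fit of all libraries and 0 to 304 without 1 library. At 48 h the 160 calls became 341, 1483, 1033 and 1 to 413. The changes of the gap, with 0 calls by edgeR, had 15 calls by DESeq2 from 24 to 48 h, 1 since 0 h and 15 against beetle cages, and 0 in every fit without 1 library. The calls at 0 h were 2225 to 5453 and those with beetles 1329 to 2285 without 1 library, and DESeq2 called 3972 with beetles. No direction of a named gene turned.

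Adding the replicate number as a block left 585 calls over both hours (237 higher, 348 lower), 2 at 24 h, 0 at 48 h and 765 at 0 h. Same-numbered libraries of the genotypes deviated together at r = 0.137 at 24 h and 0.157 at 48 h, and across hours at 0.274 in EE501F2_093 and -0.194 in USDA8380-1. The labels do not say whether a number marks a plant or a pool, so pairing was not established, and the block was not used for the main counts. With the block the calls of Soltu.DM.10G018830.1 and Soltu.DM.06G033320.1 ended (edgeR adjusted p = 0.0887 and 0.122), and those of Soltu.DM.10G018870.1 and Soltu.DM.07G021500.1 remained.

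A lone library left in a group was taken to vary like the others. Depth limits the weakest genes: under 1 CPM the median SE was 0.636 on the log2 scale and 1.01% of genes had an interval within 1 of 0. Between 20 and 100 CPM these were 0.25 and 59.4%.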

Other observations

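The 4 genes named as higher in USDA8380-1 for the hours alone or for the contrast with beetle cages, apart from Soltu.DM.12G000270.1, shared a pattern across libraries, seen after their values were known. Soltu.DM.03G031440.1, Soltu.DM.06G003170.1, Soltu.DM.09G025140.1 and Soltu.DM.06G027610.1 carry identifiers of chromosomes 3, 6 and 9. In USDA8380-1 control cages at 0 h they had 45.2 and 71.0, 41.5 and 74.3, 55.2 and 142, and 99.9 and 211 CPM. In USDA8380-1 control 48 h replicate 1 all were lower, at 8.59, 4.56, 8.82 and 12.5 CPM, and in the beetle arm before beetles they had 7.05 and 5.34, 5.18 and 1.91, 7.15 and 5.34, and 13.7 and 8.78 CPM. In EE501F2_093 they had 3 to 7 counts each over the 4 control libraries of 24 and 48 h. Over its 2 beetle-arm libraries of 0 h they averaged 1.44, 0.991, 1.60 and 3.05 CPM. Reads were thus counted on them in EE501F2_093 as well, and whether these came from the genes themselves was not tested. The levels of the 4 genes differed between cages before beetles were placed. Soltu.DM.12G000270.1, in contrast, had 8.28 to 16.4 CPM in every one of the 12 USDA8380-1 libraries and at most 3 counts in any EE501F2_093 library.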
